A study of Bos taurus with 15 samples.

Results

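Retinoic acid is made from vitamin A inside the testis, read by nuclear receptors, and broken down again within the tissue. Sertoli cells and germ cells both make it, peritubular cells and germ cells clear it, and its local level is known to set when spermatogonia differentiate and when germ cells enter meiosis. Glucocorticoids such as prednisolone act through a nuclear receptor of the same superfamily as the retinoic acid receptors.

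The genes described are 9 named genes of retinoic acid synthesis, binding and response: the retinol uptake receptor STRA6, the synthesizing enzymes ALDH1A1 and ALDH1A2, the binding protein CRABP1, the receptors RARA, RARB and RARG, the clearing enzyme CYP26B1, and the response gene STRA8. They were found on the array by the gene name, gene number, accession or description of each probe, a rule that uses names and no measured values. Of the 9 genes, 8 were matched to 12 probes, among 15072 genes with a probe on the array. STRA8, which germ cells switch on under retinoic acid before meiosis, was matched to no probe and has no value here.

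Testis tissue of 15 cattle, collected at slaughter, was measured as total RNA on single-colour Agilent arrays, with 1 array per animal. The control group was 7 untreated animals, with labels numbered 17, 18 and 20 to 24. The prednisolone group was 8 animals, numbered 25 to 32, which received prednisolone, a synthetic glucocorticoid, orally for 35 days at a daily dose of 30 mg per head. Age, breed and genotype of the animals are not given in the sources used here. A level below is the log2 processed signal of a gene's probe minus the 75th percentile of its array, so 0 is the level of that percentile and a difference of 1 is a doubling. Levels are compared between animals for 1 gene, never between genes, because each probe has its own brightness. Because whole tissue was measured, fewer cells of a type and less RNA per cell cannot be told apart.

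The array of prednisolone 30 stood apart. It had 36.4% of its probes well above background, where the other 14 arrays had 82.2% to 89.9%, and a signal of 49.8 at its 75th percentile, where they had 1220 to 2780. Over all probes with a value on every array, it correlated with them at 0.705 to 0.736, and they with each other at 0.962 to 0.993. Its scanner values did not follow its own column in the authors' deposited table either, with a gene-centred correlation of 0.00439, while those of the other arrays lay at 0.951 to 0.998. Group differences of the genes named are therefore given with and without it. Cell type markers with a probe were read for presence. All 10 Sertoli cell, 6 Leydig cell, 7 spermatocyte and 8 spermatid markers were well above background on all of the other 14 arrays. So were all 5 peritubular and smooth muscle, 5 endothelium and 5 macrophage markers, 3 of 4 spermatogonia, 4 of 6 fat and blood, and 1 of 5 epididymis markers. Because 82.2% to 89.9% of all probes passed on these arrays, presence of markers is a weak check of the tissue label.

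Across the 8 measured genes, none differed between prednisolone and control testis at an adjusted p under 0.05 (limma, Benjamini-Hochberg over all 17411 tested probes), with or without prednisolone 30. Among all 12819 tested genes the share called was likewise 0.0%. At an unadjusted p under 0.05 there was 1 gene of the 8, the receptor RARG, and 338 or 2.64% of all tested genes. Leaving out prednisolone 30, there was none of the 8, and 544 or 4.24% of all tested genes. The 2 groups overlapped for all 8 genes, and among all tested genes only 6 or 0.0468% had groups that did not overlap. The group mean was higher after prednisolone for 6 of the 8 and lower for 2, with a median log2 difference of 0.12, beside 49.9% higher and a median of -0.00063 over all tested genes. Leaving it out also gave 6 and 2, though of other genes, since ALDH1A1 turned from lower to higher and RARB from higher to lower, with a median of 0.081 beside 0.012 over all tested genes. The counts were 5 and 3 with median scaling of the arrays, beside 41.8% higher over all tested genes. They were 4 and 4 with normexp background correction, beside 62.9%, and 4 and 4 without control 17, beside 48.1%.

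**Figure D1:**
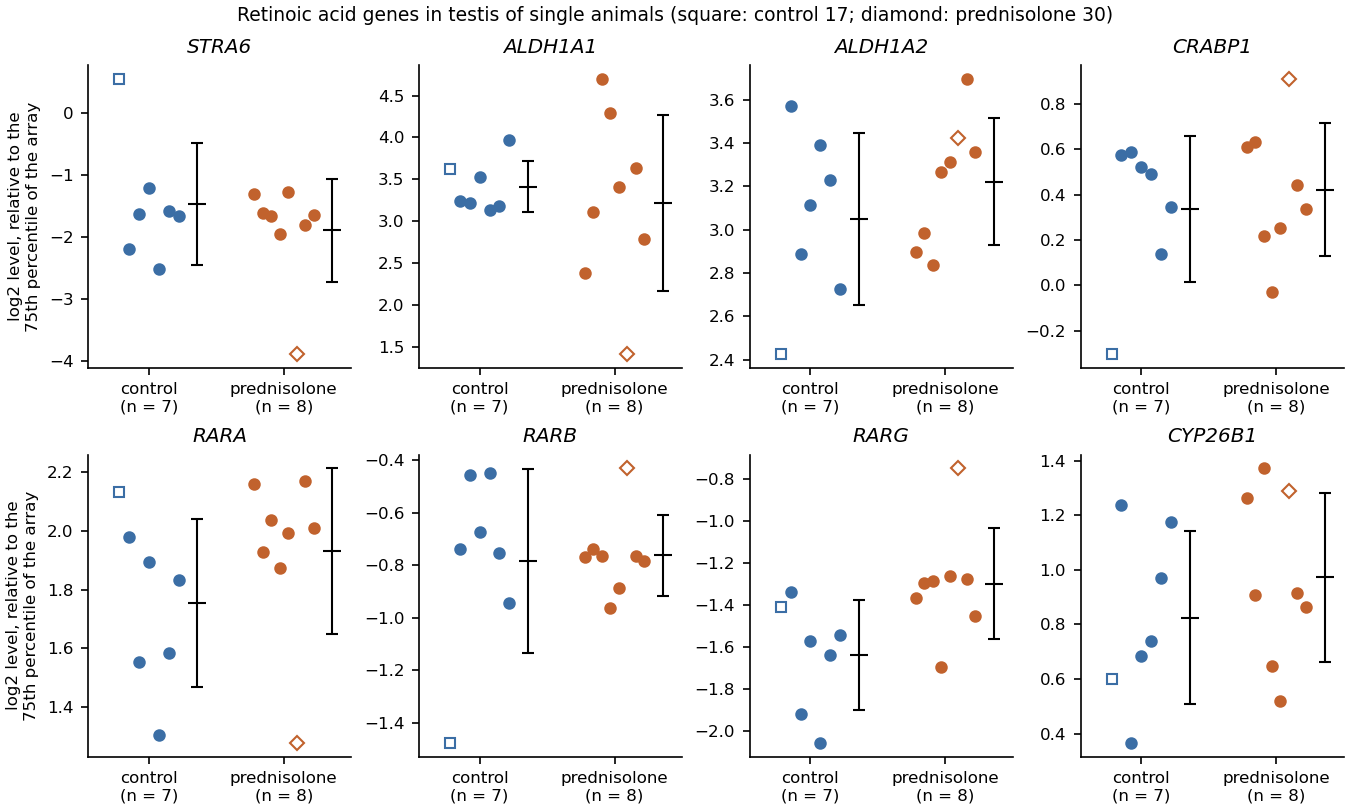
Levels of the 8 measured retinoic acid genes in each animal, as log2 level relative to the 75th percentile of the array on the vertical axis of each panel, with 7 control animals in blue and 8 prednisolone animals in orange. The bars give mean and SD, and the vertical axes have different ranges. The open square is control 17, the top animal for STRA6, and the open diamond is prednisolone 30, the bottom animal for STRA6, ALDH1A1 and RARA.

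STRA6, the membrane receptor that takes up retinol from its carrier in blood, had the widest range of the 8 genes. In controls the lowest level was -2.51, the median -1.62 and the highest 0.55, and after prednisolone they were -3.88, -1.66 and -1.27. Single animals made up both ends: control 17 stood at 0.55 while the other 6 controls lay between -2.51 and -1.22, and prednisolone 30 stood at -3.88 while the other 7 treated animals lay between -1.94 and -1.27. On the array of prednisolone 30 the STRA6 probe was not well above background. Control animals averaged -1.46 ± 0.98 (SD, n = 7) and treated animals -1.89 ± 0.84 (SD, n = 8), a difference of -0.43 with a standard error of 0.43 (95% interval -1.33 to 0.47; limma, adjusted p = 0.885). Without prednisolone 30 the difference was -0.15, and without control 17 as well it was 0.19 (interval -0.21 to 0.59), so the sign of the difference rested on these 2 animals. Apart from them, the levels of the 7 treated animals lay inside the range of the 6 controls.

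In control 17 the markers of other compartments also stood apart. Its mean level of the 5 peritubular and smooth muscle markers, taken over log2 values centred on each gene, was 1.56, above all other animals (-1.10 to 0.54). Its endothelium markers were at 0.60 and its macrophage markers at 0.78, above the other controls in both, and its spermatid markers were at -0.76, the lowest of all 15 animals. On the array of prednisolone 30 the endothelium markers were the highest of all animals, at 1.67, although none of the 5 was well above background there. Its peritubular and smooth muscle markers, at -1.10, and spermatocyte markers, at -0.86, were the lowest. Of these markers, 4 of 5 and only 2 of 7 were well above background on that array. The part of these levels in the values of either animal was not tested.

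ALDH1A1 is an aldehyde dehydrogenase that oxidizes retinal to retinoic acid and is known in the testis from Sertoli and Leydig cells. Control levels ran from 3.13 over a median of 3.24 to 3.97, and treated levels from 1.41 over a median of 3.26 to 4.70. The medians were close, and the treated animals reached both higher and lower than any control: prednisolone 27 at 4.70 and prednisolone 28 at 4.29 lay above all controls, and prednisolone 26 at 3.11, 32 at 2.78, 25 at 2.38 and 30 at 1.41 below all of them. Control animals averaged 3.41 ± 0.31 (SD, n = 7) and treated animals 3.21 ± 1.05 (SD, n = 8), a difference of -0.20 with a standard error of 0.38 (interval -1.0 to 0.60; limma, adjusted p = 0.912). Leaving out prednisolone 30 gave a difference of 0.059 (interval -0.56 to 0.68).

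Leaving out prednisolone 30, ALDH1A1 still had an SD of 0.82 in the prednisolone group against 0.31 in controls. The difference in mean absolute deviation from the group median did not pass an exact permutation test over 7 against 7 animals (two-sided p = 0.0769, adjusted over the 8 genes p = 0.205). For RARA and RARB the SD was larger in controls, at 0.29 against 0.11 (exact permutation p = 0.0629) and 0.35 against 0.083 (exact permutation p = 0.0728), both with an adjusted p of 0.205. The other 5 genes had exact permutation p-values of 0.180 to 0.804 for their spread.

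ALDH1A2 carries out the same oxidation and is known in the testis mainly from germ cells. Control levels ran from 2.43 over a median of 3.11 to 3.57, and treated levels from 2.84 over a median of 3.29 to 3.70. Controls 17 and 24, at 2.43 and 2.73, lay below all treated animals, and prednisolone 31, at 3.70, lay above all controls. Control animals averaged 3.05 ± 0.40 (SD, n = 7) and treated animals 3.22 ± 0.29 (SD, n = 8), a difference of 0.17 with a standard error of 0.19 (interval -0.22 to 0.57; limma, adjusted p = 0.885). Without prednisolone 30 it was 0.14, and without control 17 as well 0.039.

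CRABP1 binds retinoic acid in the cytoplasm and is known from spermatogonia. Control levels ran from -0.30 over a median of 0.49 to 0.59, and treated levels from -0.029 over a median of 0.39 to 0.91. Control 17 was again the lowest animal and prednisolone 30 the highest. The remaining controls lay between 0.14 and 0.59, and the remaining treated animals between -0.029 and 0.63. Control animals averaged 0.34 ± 0.32 (SD, n = 7) and treated animals 0.42 ± 0.29 (SD, n = 8), a difference of 0.085 with a standard error of 0.17 (interval -0.28 to 0.45; limma, adjusted p = 0.916). It was 0.015 without prednisolone 30, and -0.092 without control 17 as well.

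The 3 retinoic acid receptors are ligand-activated transcription factors that bind DNA together with retinoid X receptors. RARA is known from Sertoli cells and germ cells, and RARG from differentiating spermatogonia. For RARG, control levels ran from -2.06 over a median of -1.57 to -1.34, and treated levels from -1.70 over a median of -1.29 to -0.75. Of the 8 treated animals 7 lay above the control mean; the exception was prednisolone 28, at -1.70. Control animals averaged -1.64 ± 0.26 (SD, n = 7) and treated animals -1.30 ± 0.27 (SD, n = 8), a difference of 0.34 with a standard error of 0.16, or 1.27-fold (interval 1.01-fold to 1.59-fold). Its unadjusted p in limma was 0.0449 and its adjusted p 0.885.

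The RARG value rested in part on single arrays. When 1 animal was left out at a time, the unadjusted p stayed under 0.05 in 4 of 15 cases, with a range of 0.0232 to 0.107 (limma). Prednisolone 30 was the highest animal, at -0.75, and without it the difference was 0.26 (interval -0.0084 to 0.53; limma, unadjusted p = 0.0567, adjusted p = 0.964). The lowest animals were control 22, at -2.06, and control 20, at -1.92, which shared slide 2 and a scan day with no treated animal. Within the scan day that held both groups, 3 controls and 6 treated animals, the difference was 0.23 (interval -0.29 to 0.74), or 0.16 without control 17 and prednisolone 30, which were both scanned that day, and within slide 1, which held controls 17 and 18 and prednisolone 25 and 26, it was 0.040 (interval -0.53 to 0.61). In the authors' deposited table, where prednisolone 30 has other values, the difference was 0.24 (unadjusted p = 0.0506, adjusted p = 0.855, limma). Leaving out both control 17 and prednisolone 30 gave 0.30 (unadjusted p = 0.0318, adjusted p = 0.913, limma). Array weights also gave 0.30 (unadjusted p = 0.0147, adjusted p = 0.622, limma). In these 2 settings 658 and 848 of all tested genes had an unadjusted p under 0.05, beside 338 in the main fit (limma).

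For RARA, control levels ran from 1.30 over a median of 1.83 to 2.13, and treated levels from 1.28 over a median of 2.0 to 2.17. The 7 treated animals other than prednisolone 30 lay close together, between 1.87 and 2.17, and controls 20, 22, 23 and 24 lay below all of them. Control animals averaged 1.75 ± 0.29 (SD, n = 7) and treated animals 1.93 ± 0.28 (SD, n = 8), a difference of 0.18 with a standard error of 0.16 (interval -0.17 to 0.52; limma, adjusted p = 0.885). Without prednisolone 30, the lowest animal at 1.28, the difference was 0.27, or 1.21-fold (limma, unadjusted p = 0.0515, adjusted p = 0.964). Within the scan day that held both groups it was 0.024 (interval -0.57 to 0.62), or 0.27 without control 17 and prednisolone 30, and within slide 1 it was -0.013. Leaving out both control 17, the highest control at 2.13, and prednisolone 30, the lowest treated animal, had to raise the difference. It was then 0.33 (unadjusted p = 0.0137, adjusted p = 0.913, limma). Of all 12819 tested genes, 658 had an unadjusted p under 0.05 in that setting, beside 338 with all animals (limma).

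RARB is itself a known direct target of retinoic acid. Control levels ran from -1.48 over a median of -0.74 to -0.45, and treated levels from -0.96 over a median of -0.77 to -0.43. Apart from prednisolone 30, at -0.43 and not well above background there, the treated animals lay within the control range, and control 17 was the lowest animal. Control animals averaged -0.78 ± 0.35 (SD, n = 7) and treated animals -0.76 ± 0.15 (SD, n = 8), a difference of 0.022 with a standard error of 0.16 (interval -0.31 to 0.35; limma, adjusted p = 0.974). It was -0.026 without prednisolone 30, and -0.14 without control 17 as well.

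CYP26B1 is the cytochrome P450 that breaks down retinoic acid in the testis and, in the fetal gonad, keeps germ cells out of meiosis. Control levels ran from 0.37 over a median of 0.74 to 1.24, and treated levels from 0.52 over a median of 0.91 to 1.37. Prednisolone 27, 30 and 25, at 1.37, 1.29 and 1.26, lay above all controls, and control 20, at 0.37, below all treated animals. Control animals averaged 0.83 ± 0.32 (SD, n = 7) and treated animals 0.97 ± 0.31 (SD, n = 8), a difference of 0.15 with a standard error of 0.18 (interval -0.22 to 0.52; limma, adjusted p = 0.885). Without prednisolone 30 it was 0.10.

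**Figure D2:**
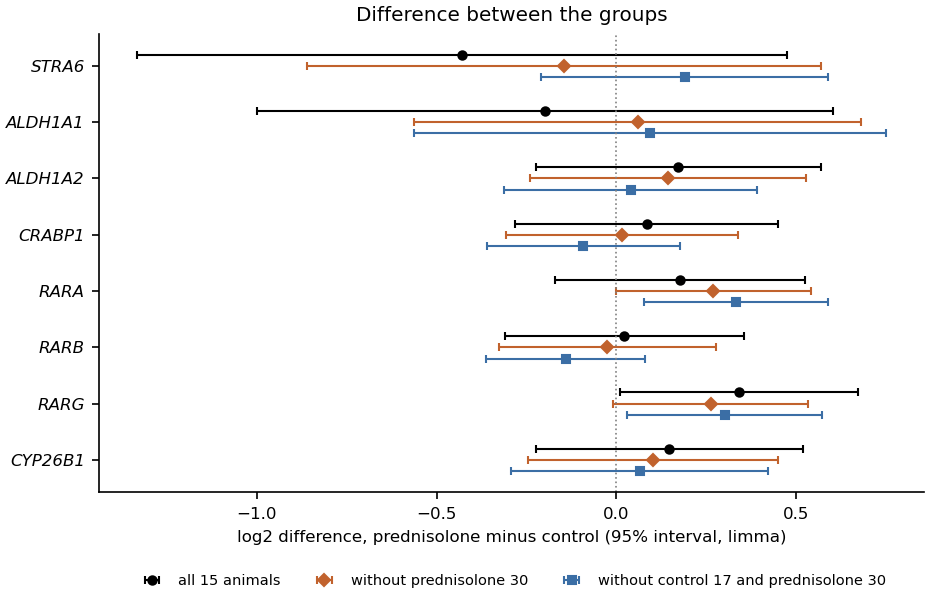
Log2 difference of prednisolone minus control on the horizontal axis for each of the 8 genes, with its 95% interval from limma, for all 15 animals (black dots), without prednisolone 30 (orange diamonds) and without control 17 and prednisolone 30 (blue squares). The STRA6 point moves from -0.43 to 0.19 across the 3 sets, and the RARG point stays between 0.26 and 0.34.

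With all animals and no term for slide or scan day, the upper bound for the 3 receptors and for CRABP1, CYP26B1 and ALDH1A2 was at most 0.67 on the log2 scale and the lower bound at least -0.31. For STRA6 and ALDH1A1 the lower bounds were -1.33 and -1.0. The intervals of all 8 genes were wider with scan day or slide as a block: the upper bound for CRABP1 was then 0.89 or 1.06, and the lower bounds were -1.45 or -1.71 for ALDH1A1 and -2.24 or -2.35 for STRA6. In the scan day that held both groups, the differences of CRABP1, RARB, ALDH1A1 and STRA6 were 0.39, 0.26, -0.56 and -0.84, and none passed the test. That day held both control 17 and prednisolone 30, and without them the 4 differences, over 2 controls and 5 treated animals, were 0.098, -0.042, -0.15 and 0.36.

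Further probes of 3 of the genes gave a check of the readings. The second CYP26B1 probe was well above background on all 14 arrays other than that of prednisolone 30 and gave a group difference of 0.19, beside 0.15 for the probe read. Without prednisolone 30 the values were 0.33 and 0.10, and the 2 probes ranked the animals differently, with a correlation of 0.12 over 14 animals. The second RARG probe, above background on 11 of 15 arrays and not tested, followed the probe read with a correlation of 0.61. The other RARB probes were dim, and their correlations with the probe read were -0.14 and 0.17. The animal-to-animal levels given for RARB and CYP26B1 are those of the probe read alone. For RARG, RARB and CYP26B1 the probe read was matched to the gene by its description only. The probes matched by gene number were dimmer, with mean levels of -6.31, -6.78 and -2.66, beside -1.46, -0.77 and 0.90 for the probes read.

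Among the 28 pairs of the 8 genes, RARA and RARG varied together across animals. Over the 14 animals without prednisolone 30, Pearson's r was 0.889 (permutation p = 4e-05, adjusted p = 0.00112) and Spearman's rho 0.785 (permutation p = 0.00131, adjusted p = 0.0367). Controls 22 and 20 were the lowest animals for both receptors, and without them r was 0.686. Within groups r was 0.926 over 7 controls and 0.531 over 7 treated animals. By scan day it was 0.706 over the 8 animals of the shared day and 0.944 over the 6 others, pooled from scan days 2 to 5. Controls 20 and 22 shared slide 2. On slide 1, RARA was 2.13 and 1.98 in controls 17 and 18 and 2.16 and 1.93 in prednisolone 25 and 26. RARG there was -1.41, -1.34, -1.37 and -1.30, so it was lower in control 17 and prednisolone 25, where RARA was higher. The part of slide in this relation was not tested. On the array of prednisolone 30 the pair parted: RARA was at its lowest level of all 15 animals and RARG at its highest.

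CRABP1 and RARB formed the other pair past the threshold by Pearson's r, at 0.803 (permutation p = 0.00091, adjusted p = 0.0127), but not by Spearman's rho, at 0.648 (permutation p = 0.0143, adjusted p = 0.200). Control 17 was the lowest animal for both, and without controls 17 and 22 r was 0.617. The other 26 pairs did not pass by either measure. All values on 1 array share its scaling and its RNA sample.

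**Figure D3:**
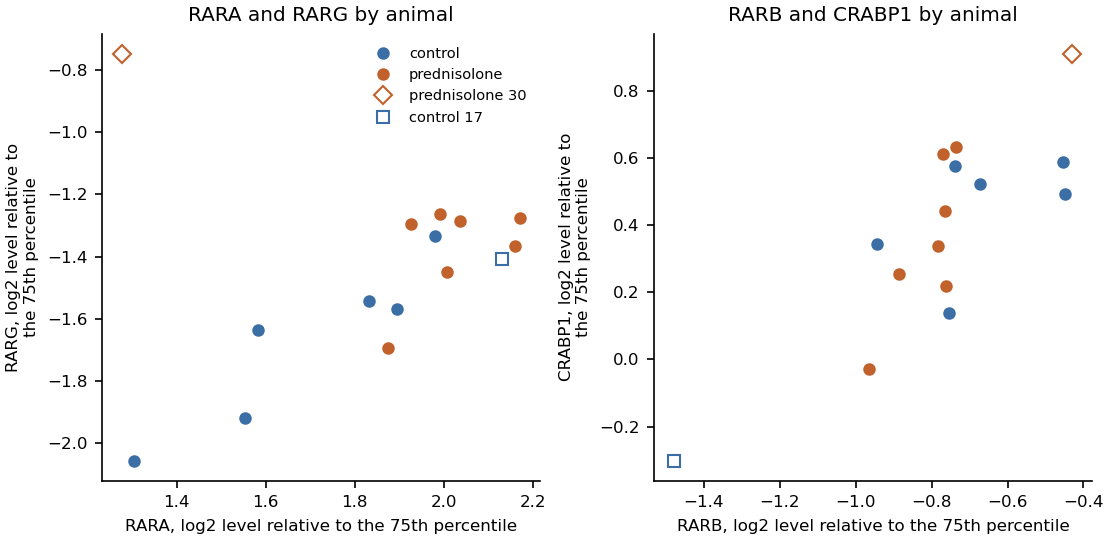
Log2 levels relative to the 75th percentile of the array in single animals, RARG against RARA on the left and CRABP1 against RARB on the right. The RARA and RARG levels follow each other over 14 animals (r = 0.889), with prednisolone 30 far off this line, and control 17 is the lowest animal in the right panel.

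Relations of the 8 genes to the mean levels of cell type markers were also computed over the 14 animals, 72 in all. After adjustment 0 passed the threshold, the smallest adjusted permutation p being 0.110, and 16 had an unadjusted permutation p under 0.05. The 3 with the smallest permutation p for r involved ALDH1A2, RARB and CRABP1, and control 17 was at an extreme of each. Lower ALDH1A2 went with higher peritubular and smooth muscle markers (r = -0.72, rho = -0.60, permutation p = 0.00281), and without control 17 and prednisolone 31 its r was -0.47. Lower RARB went with higher endothelium markers (r = -0.81, rho = -0.58, permutation p = 0.00441), with an r of -0.34 without controls 17 and 22. Lower CRABP1 did so too (r = -0.74, rho = -0.57, permutation p = 0.00476), with an r of -0.45 without control 17 and prednisolone 28. All 3 relations had an adjusted permutation p of 0.110.

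The genes whose levels were most like those of each gene were taken from 12570 named genes by Pearson's r over the same 14 animals, as a description. RARG was followed most closely by CPNE1 (r = 0.949), ZYX (0.927) and KLHL22 (0.924), and RARA by ZYX (0.900), CTBP1 (0.895) and SNAPC4 (0.890), so that ZYX was on both lists. ALDH1A2 was followed by EIF2B5 (0.941), SLC25A39 (0.930) and NOL12 (0.926), and RARB by EEF1AKMT2 (0.939), E2F1 (0.889) and CDH13 (0.888). For STRA6 they were RPS3 (0.962), RASSF4 (0.958) and CKB (0.926), which without control 17 were at 0.848, 0.831 and 0.671. For ALDH1A1 they were SCARF2 (0.879), SNAP25 (0.820) and SLITRK4 (0.811), for CYP26B1 EPB41L2 (0.882), RTN1 (0.866) and VDAC2 (0.862), and for CRABP1 UBE2B (0.873), HAUS8 (0.869) and TRMT6 (0.844). The highest of so many correlations over 14 animals are high by selection.

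Other genes of retinoid metabolism and response were read from 5 lists with 51 genes, of which 46 had a probe and 37 were bright enough to test. None of the 37 passed the threshold (limma, smallest adjusted p = 0.885), and 1, the corepressor NCOR1, had an unadjusted p under 0.05. Their group mean was higher after prednisolone for 11 and lower for 26, with a median log2 difference of -0.15, beside 50.1% lower over all tested genes. The counts were 15 and 22 and the median -0.028 without prednisolone 30, beside 47.3% lower over all tested genes. Normexp background correction of all arrays gave counts of 18 and 19, or 48.6% higher, beside 62.9% higher over all tested genes. On the array of prednisolone 30 only 18 of the 37 were well above background. No probe was matched to PNPLA4, SOHLH1, MEIOSIN, ZGLP1 and NANOS2, and BCO1, RDH12, RDH13, DHRS9, ADH7, ALDH8A1, RXRG and REC8 were among the genes too dim to test.

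Of the 6 tested genes of retinol transport and storage, 2 were higher and 4 lower, with a median of -0.12. RBP2, a cellular retinol-binding protein, was at -3.63 ± 0.28 (SD, n = 7) in controls and -3.48 ± 0.19 (SD, n = 8) after prednisolone, a difference of 0.15. It differed by 0.12 without prednisolone 30. LRAT, which esterifies retinol for storage, differed by 0.13, and by 0.10 without that animal. RBP2 and LRAT were the higher genes of this list. Among the lower ones, DGAT1, RBP4 and TTR differed by -0.16, -0.31 and -0.072, and by -0.15, -0.093 and -0.47 without prednisolone 30. Control levels of TTR ran from -5.12 to 0.21.

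Of the 9 tested enzymes acting on carotene, retinol and retinal, 4 were higher and 5 lower, with a median of -0.21. ALDH1A3, the third retinal dehydrogenase, was at 0.16 ± 0.23 (SD, n = 7) in controls and -0.20 ± 0.39 (SD, n = 8) after prednisolone, a difference of -0.36 (limma, unadjusted p = 0.0652, adjusted p = 0.885), which was -0.32 without prednisolone 30 and 0.13 when its tested probes were averaged. RDH14, a retinol dehydrogenase, differed by -0.25, and by -0.11 without prednisolone 30. RDH10, the main enzyme turning retinol into retinal, differed by 0.040, and by 0.11 without prednisolone 30, where its probe was not well above background.

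Of the 4 genes of binding and clearance outside the main set, 2 were higher and 2 lower. CYP26C1, a clearing enzyme, was at -4.61 ± 0.37 (SD, n = 7) in controls and -3.96 ± 1.60 (SD, n = 8) after prednisolone, and its difference of 0.66 was 0.10 without prednisolone 30, which stood at -0.080 while the other treated animals lay between -4.85 and -3.76. CYP26A1, the retinoic acid-induced clearing enzyme, differed by -0.20, and by -0.16 without that animal.

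Of the 8 tested retinoid X receptors and cofactors, 2 were higher and 6 lower, and 4 and 4 without prednisolone 30. NCOR1, which represses genes through receptors without ligand, was at 0.10 ± 0.26 (SD, n = 7) in controls and -0.32 ± 0.30 (SD, n = 8) after prednisolone, a difference of -0.42 (limma, unadjusted p = 0.0185, adjusted p = 0.885) that was -0.35 without prednisolone 30. The NCOR1 difference lay between -0.56 and -0.23 in the 32 alternatives. With normexp background correction, within scan day 1 or with the tested probes of a gene averaged, none of the 37 genes had an unadjusted p under 0.05 (limma). The coactivator NCOA1 differed by 0.32, and by 0.38 without prednisolone 30. The obligate partners RXRA and RXRB differed by -0.15 and 0.090 with all animals and by -0.056 and -0.027 without it.

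Of the 10 tested genes of retinoic acid response, 1 was higher and 9 lower, with a median of -0.22, and without prednisolone 30 3 were higher and 7 lower, with a median of -0.036. TGM2, a transglutaminase induced by retinoic acid, was at 1.79 ± 0.41 (SD, n = 7) in controls and 1.23 ± 0.81 (SD, n = 8) after prednisolone, a difference of -0.57 that was -0.29 without prednisolone 30. RARRES2, a secreted protein named for its response to a retinoid, differed by -0.30, and by -0.19 without that animal. KIT, DAZL, DMRT1 and SOHLH2, which act in germ cells, and DMRT1 in Sertoli cells too, differed by -0.065, -0.22, -0.22 and -0.10, and by -0.0030, -0.030, 0.077 and 0.076 without prednisolone 30.

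**Figure D4:**
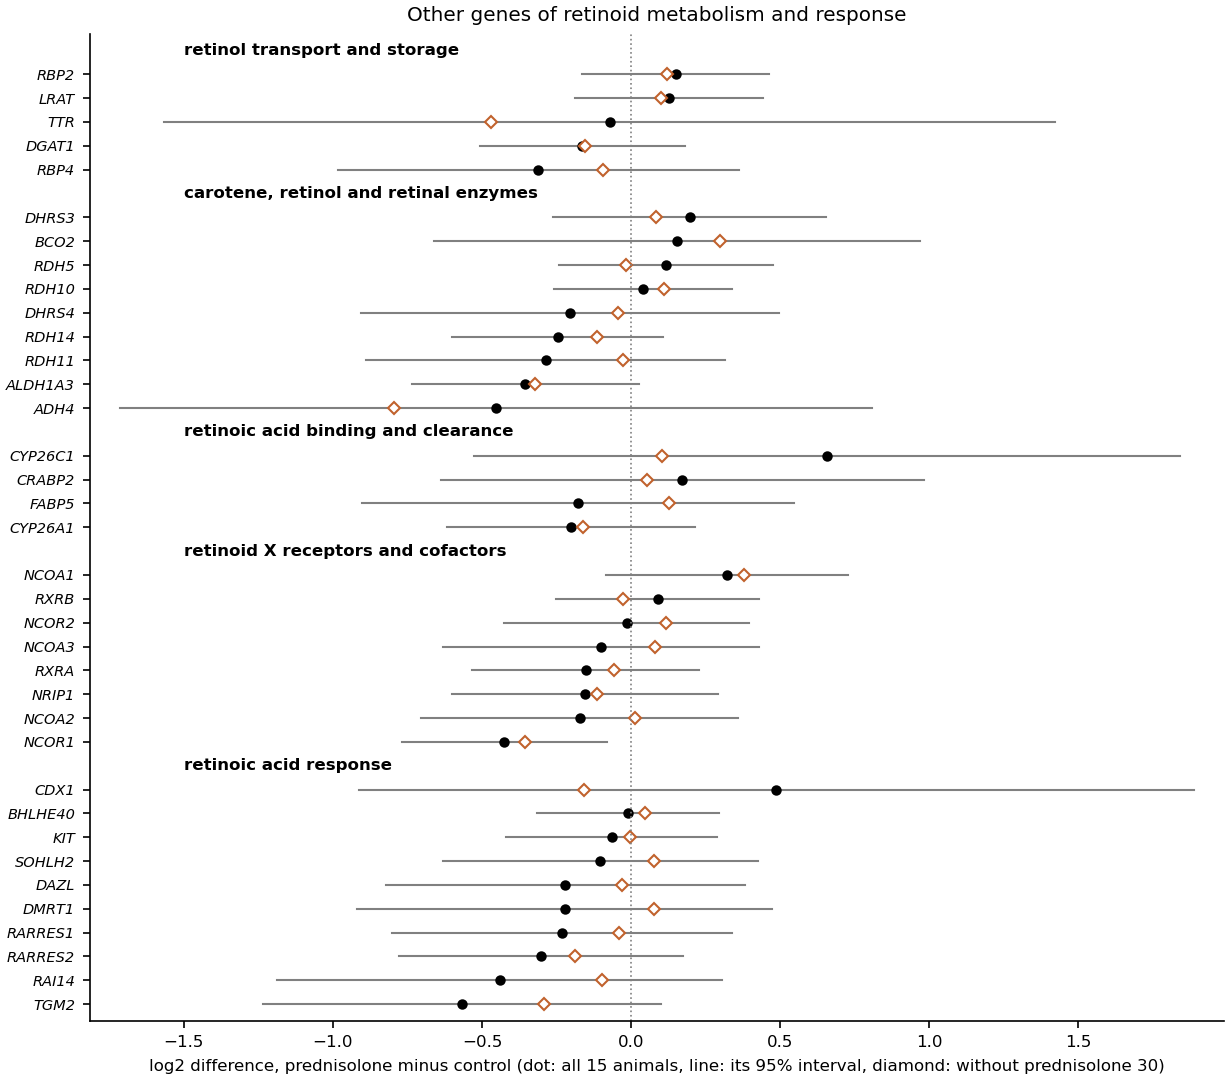
Log2 difference of prednisolone minus control on the horizontal axis for 36 of the 37 tested genes of 5 lists of retinoid metabolism and response. Dots are all 15 animals with their 95% interval from limma, and diamonds are without prednisolone 30. Of the dots 25 lie below 0 and 11 above, and CYP26C1 moves from 0.66 to 0.10 without that animal.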

How the data were processed

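Each spot's intensity comes from the deposited scanner files, written by Feature Extraction 9.5.1.1 per the file headers. Its processed signal had background subtracted and was detrended, as the series' design text says. The authors also deposited a value table of linear intensity, whose columns followed their own scanner files in rank on 14 arrays (Spearman at least 0.99998) but not for prednisolone 30 (0.686). Its column medians were 440 to 497, it was not centred per gene, and how it was scaled is not stated in the sources used here. The submitters' processing notes name R 2.11.1.

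Control spots and outlier flags were left out, spots of a probe were averaged, and each array's 75th percentile was subtracted on the log2 scale. Of 21475 probes, 17411 that were well above background on at least 7 arrays of a group were tested. Probes were named through RefSeq symbols (bovine assembly ARS-UCD2.0), and 16336 had one. For a gene with several probes, the one of highest mean was used. limma 3.58.1 in R 4.3.3 compared the groups, two-sided. Relations between genes used 100000 permutations and spread an exact permutation test. All 9 genes are described. In each of the other lists the 2 genes with the smallest unadjusted p are given with values, and others by their role, except that values of some listed genes are not reported here. Simulated data were used to test the fit. The genes, lists and tests were chosen with earlier results of these data known. Precision is limited by the number of arrays. Slides and scan days were taken from the scanner files, and both groups were present on scan day 1 and on slides 1 and 4. Alternatives covered scaling, background correction, the deposited table, probe filters, slide and scan day, array weights, the probe read and leaving out animals.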

Additional observations from a re-analysis of the deposited data

Results flagged for a closer look

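In 34 groups of animals, each read for 1 gene, Dixon's test looked for a single animal far from the rest. It marked 9 values, and chance alone marks about 1 group in 20. Of the 9 values, 7 were those of prednisolone 30, whose array was dim. Its STRA6 level was -3.88, while the other treated animals lay between -1.94 and -1.27. Its RARA level was 1.28, below 1.87 to 2.17 in the others. Its RARB level was -0.43, above -0.96 to -0.74 in the others, and its RARG level was -0.75, above -1.70 to -1.26. Among the other genes, its TGM2 level was -0.70, below 1.19 to 1.77, its RDH14 level was -0.15, below 0.81 to 1.01, and its CYP26C1 level was -0.080, above -4.85 to -3.76. In the authors' deposited table this animal's levels were -2.65 for STRA6, 1.41 for RARA, -1.37 for RARB and -1.75 for RARG. There RARB lay below the other treated animals and RARG within their range.

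The STRA6 level of control 17, at 0.55, lay above the other controls (-2.51 to -1.22). The RBP2 level of control 22, at -4.22, lay below the other controls (-3.66 to -3.35).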

How the results depend on the processing

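The count of genes past the adjusted threshold was 0 for the 8 retinoic acid genes, the 37 other tested genes and all tested genes in each of the 32 alternatives, with a smallest adjusted p of 0.0727 (limma, array weights) over all genes. The count of all tested genes at an unadjusted p under 0.05 was 338, against 76 with normexp background correction, 75 within slide 4, 125 within scan day 1, 202 without control 22, 544 without prednisolone 30, 590 in the deposited table without it (chosen after seeing the data), 658 without control 17 and prednisolone 30, 677 in the whole deposited table, 848 with array weights and 1056 within scan day 1 without control 17 and prednisolone 30 (also chosen after seeing the data). RARG kept its direction in all 32, between 0.040 and 0.63, with adjusted p-values of 0.622 to 1.0. Leaving out 1 animal at a time gave 0.26 to 0.40 for RARG, 0.10 to 0.27 for RARA, -0.60 to -0.094 for STRA6, -0.41 to 0.059 for ALDH1A1, 0.069 to 0.26 for ALDH1A2, 0.071 to 0.22 for CYP26B1, -0.094 to 0.078 for RARB and -0.022 to 0.15 for CRABP1. Without control 17 and prednisolone 30, the sign turned for ALDH1A1 (0.094), STRA6 (0.19), RARB (-0.14) and CRABP1 (-0.092). It turned with normexp for ALDH1A2 (-0.043) and CRABP1 (-0.049), with median scaling for RARB (-0.033), with array weights for STRA6 (0.048), RARB (-0.088) and CYP26C1 (-0.031), and with quantile scaling for RBP2 (-0.14). In the deposited table RARB was at -0.066, and without prednisolone 30 RARB was at -0.035 and ALDH1A1 at 0.020 there. Within slide 1 ALDH1A2 was at -0.060, RARA at -0.013 and CYP26C1 at -0.060, and within slide 4, with 1 control, CYP26B1 was at -0.065, NCOA1 at -0.077 and RBP2 at -0.0084. Within scan day 1 without control 17 and prednisolone 30, ALDH1A2 was at -0.15, STRA6 at 0.36, RARB at -0.042, CYP26B1 at -0.21, TGM2 at 0.040 and RARRES2 at 0.28. Averaging probes gave 0.13 for ALDH1A3. The causes were not tested. Quantile, median and normexp scaling moved the share of all tested genes higher after prednisolone from 49.9% to 39.9%, 41.8% and 62.9%. No paired analysis was possible because the groups share no replicate numbers.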
